A study of Homo sapiens with 8 samples.

Results

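The neurofilament subunits and the stathmin family, together with GAP43 and the microtubule-associated protein tau, were followed in FT293 cells through every array probe named NEFL, NEFM, NEFH, INA, STMN1, STMN2, STMN3, STMN4, GAP43 or MAPT. These 10 genes were measured by 16 of the 50599 probes on the array, which carry 36337 gene names. The genes were chosen with the signals of these same arrays known, in which TIA1- and TIAR-expressing cells had been set against HuR-expressing cells. Their values, fold changes and counts are therefore given as a description. The members were fitted with all other probes, their calls are printed as that fit gave them, and no p is given for a member.

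FT293 cells derive from HEK293, a human embryonic kidney line, and carry a single site into which Flp recombinase inserts a transgene that tetracycline switches on. The transgene encoded GFP alone, GFP-HuR, GFP-TIA1 or GFP-TIAR, and RNA was taken on day 3 of tetracycline in all 4 lines, GFP controls included. TIA1, TIAR and HuR are RNA-binding proteins that recognize U-rich stretches of transcripts. Each line was 1 stable, isogenic line and was measured on 2 one-colour arrays, labelled as replicates 1 and 2, so every adjusted p below measures only the spread between samples of the same line. In cell populations, fewer cells of a type and less RNA per cell cannot be told apart.

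Neurofilaments are the intermediate filaments of axons. They assemble from a light, a medium and a heavy subunit (NEFL, NEFM and NEFH) together with alpha-internexin (INA), and set the calibre of the axon. Stathmins bind tubulin dimers and promote the shrinking of microtubules: STMN1 is found in many dividing cells, whereas STMN2, STMN3 and STMN4 are largely neuronal. Tau (MAPT) binds along microtubules and stabilizes them, and GAP43 is a membrane-associated protein of growth cones. HEK293 cells are known to express several genes of neuronal lineages.

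The scanner software marked 43530 probes as well above background on GFP 1 and between 26931 and 29605 on each other array. On GFP 1 the mean local background was 83.2 intensity units, against 35.7 to 41.5 elsewhere. GFP 1 thus stood apart, and calls of members against GFP are given with and without it. The marker sums, the nearest genes and the values of list genes in the GFP line are given with it only. All 7 markers fixed for HEK293-like cells, among them VIM, KRT8, KRT18 and PAX2, were well above background on all 8 arrays. Of 7 markers of mature neurons, RBFOX3, SLC17A7 and GAD1 were so on all 8 arrays, whereas SLC17A6 and CAMK2A were so on none but GFP 1. Of the markers of glia, kidney epithelium, fibroblasts and blood cells, 2 of 5, 2 of 4, 1 of 4 and 2 of 4 were so on all 8. TIAL1, the gene of TIAR, lay at 4.89 and 5.01 in TIAR-expressing cells and at 1.65 to 2.53 on the other 6 arrays at probe A_23_P161488, in log2 signal. Its second probe, A_33_P3293869, was well above background on all 8 arrays and not highest in TIAR-expressing cells, at -4.10 and -3.83 against -3.44 and -3.68 in GFP-, -3.56 and -3.61 in HuR- and -4.34 and -3.96 in TIA1-expressing cells. The single ELAVL1 (HuR) probe, at 0.35 and 0.43 in HuR-expressing cells against 0.94 and 1.09 in the GFP line, and both TIA1 probes were not highest in the line that expressed the protein. Whether the transgenes carry the bases that these probes match was not tested.

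The probes are 60-base oligonucleotides, and the sequences below are shown for NEFH and STMN3, whose signals differed most between lines, and for the STMN1 probe of variant 1, with 30 of the 60 bases as the array files list them, 5′ to 3′. Capitals mark a run of TTTTT, and only the listed strand was searched for it. The NEFH probe lies at chr22:29887194-29887253 on the plus strand of hg19 (GRCh37), the STMN1 variant 1 probe at chr1:26227232-26227291 on the minus strand, and the STMN3 probe at chr20:62271944-62272003 on the minus strand. Without a genome of this build, exons and untranslated regions were not assigned.
NEFH, probe A_23_P300600, bases 1 to 30: actgaattatgccagggcgcactttccact
STMN1 variant 1, probe A_33_P3317523, bases 1 to 30: ctaatgtagctaTTTTTcttgttgcatctt
STMN3, probe A_24_P678104, bases 1 to 30: ctgcatggtctagaggttgtgggcagcatg

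TTTTT was present in 1 of the 16 probes and in 10.6% of all probes on the array. The match is a description of the probe's letters only. STMN1 was also measured by 4 probes labelled for transcript variant 4, of which A_19_P00320974 and A_24_P342511 share 47 bases. These probes are thus not independent of each other.

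Signals are given below as log2 signal relative to the array's 75th percentile, for the first and then the second array of each line. Calls of higher or lower were made by limma over all probes tested, where the change reached 2-fold and the p adjusted by Benjamini and Hochberg's method was under 0.05. Levels of different probes were not compared with each other.

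NEFL and NEFH, the light and heavy neurofilament subunits, differed between the TIA lines and HuR-expressing cells in opposite directions. NEFL was highest in HuR-expressing cells, at 3.02 and 3.06, and lay at 1.80 and 2.21 in GFP-, at 1.69 and 1.61 in TIA1- and at 1.27 and 1.46 in TIAR-expressing cells. Neither HuR array overlapped any other, and the TIA1 and TIAR arrays all lay below both GFP arrays. NEFL was 2.62-fold lower in TIA1- versus HuR-expressing cells (log2 fold change -1.39, SE 0.09) and 3.19-fold lower with TIAR (log2 fold change -1.68, SE 0.11). The difference between TIAR and TIA1 was -0.28 (SE 0.13) in log2 fold change and was not called.

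NEFH went the other way between the TIA lines and HuR-expressing cells at probe A_23_P300600. It lay at -1.61 and -1.65 in TIA1- and at -1.73 and -1.61 in TIAR-expressing cells, against -4.93 and -4.60 in HuR-expressing cells. The TIA1 and TIAR arrays overlapped each other and lay above all others. NEFH was 8.80-fold higher with TIA1 (log2 fold change 3.14, SE 0.14) and 8.54-fold higher with TIAR (3.09, SE 0.15) than with HuR. The size depended on the processing: over the alternatives run with limma, the log2 fold change ran from 1.84 to 3.3 for TIA1 and from 1.89 to 3.26 for TIAR. On the HuR arrays NEFH had only 50.8 and 68.2 intensity units. In the GFP line it lay at -3.39 on GFP 1 and at -4.82 on GFP 2, so the GFP arrays spread wider than any other pair for this probe. Against GFP the log2 fold change was 2.47 (SE 0.53) for TIA1 and 2.43 (SE 0.54) for TIAR, neither called. Without the array GFP 1 these values were 3.19 and 3.15, and without GFP 2 they were 1.76 and 1.71.

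The second NEFH probe, A_33_P3408152, lies 547 bases upstream on chromosome 22 and was much dimmer. It was not well above background on either HuR array or on GFP 2, and was well above it on GFP 1, TIA1 1 and both TIAR arrays, at -3.90, -4.69, -4.49 and -4.19. Compared with HuR, the signal was at least 3.17-fold higher with TIAR and at least 2.35-fold higher with TIA1. With TIA1, 1 of 2 arrays measured it, and the mean includes TIA1 2, at -4.85 and not well above background. As bounds, these folds set the mean of the brighter line against the detection limit of each dim array, taken as its dimmest detected probe, or against the probe's own signal where that was higher. They hold for the signals used here only, since some alternatives gave the probe smaller changes. In the fit its log2 fold change for TIAR versus HuR was 2.43, and the call was lost under 7 of 11 alternatives, among them normexp background correction (0.79), normexp with quantile normalization (0.47) and the authors' log2 values (0.23).

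NEFM, the medium subunit, followed NEFL and not NEFH in its direction against HuR, at a dim probe. It had 115 and 112 intensity units on the HuR arrays, 56.4 and 48.6 with TIA1 and 49.5 and 42.2 with TIAR. Over the alternatives, its log2 fold change for TIA1 versus HuR ran from -0.9 to -0.29. NEFM lay at -3.74 and -3.89 in HuR-, at -4.49 and -4.61 in TIA1- and at -4.80 and -4.93 in TIAR-expressing cells, and at -4.38 on GFP 1, whereas GFP 2 was not well above background. The HuR arrays were the highest and overlapped none of the others. NEFM was 2.07-fold lower with TIAR than with HuR (log2 fold change -1.05, SE 0.11) and was called, while the difference between TIA1 and HuR, -0.73 (SE 0.11), stayed under the fold threshold. The TIAR call was lost under 6 of 12 alternatives: without HuR 1 (-0.97), without HuR 2 (-1.12), without TIAR 2 (-0.98), with normexp background correction (-0.38), with normexp and quantile normalization (-0.64) and with the authors' log2 values (-0.83).

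Alpha-internexin (INA) varied little. It lay at 2.36 and 2.79 in GFP-, at 1.85 and 1.94 in HuR-, at 2.63 and 2.62 in TIA1- and at 2.30 and 2.27 in TIAR-expressing cells. The HuR arrays were the lowest and did not overlap the rest, and the GFP arrays spanned those of TIA1. The log2 fold change was 0.73 (SE 0.09) for TIA1 and 0.39 (SE 0.10) for TIAR versus HuR, and neither was called at 2-fold.

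**Figure D1:**
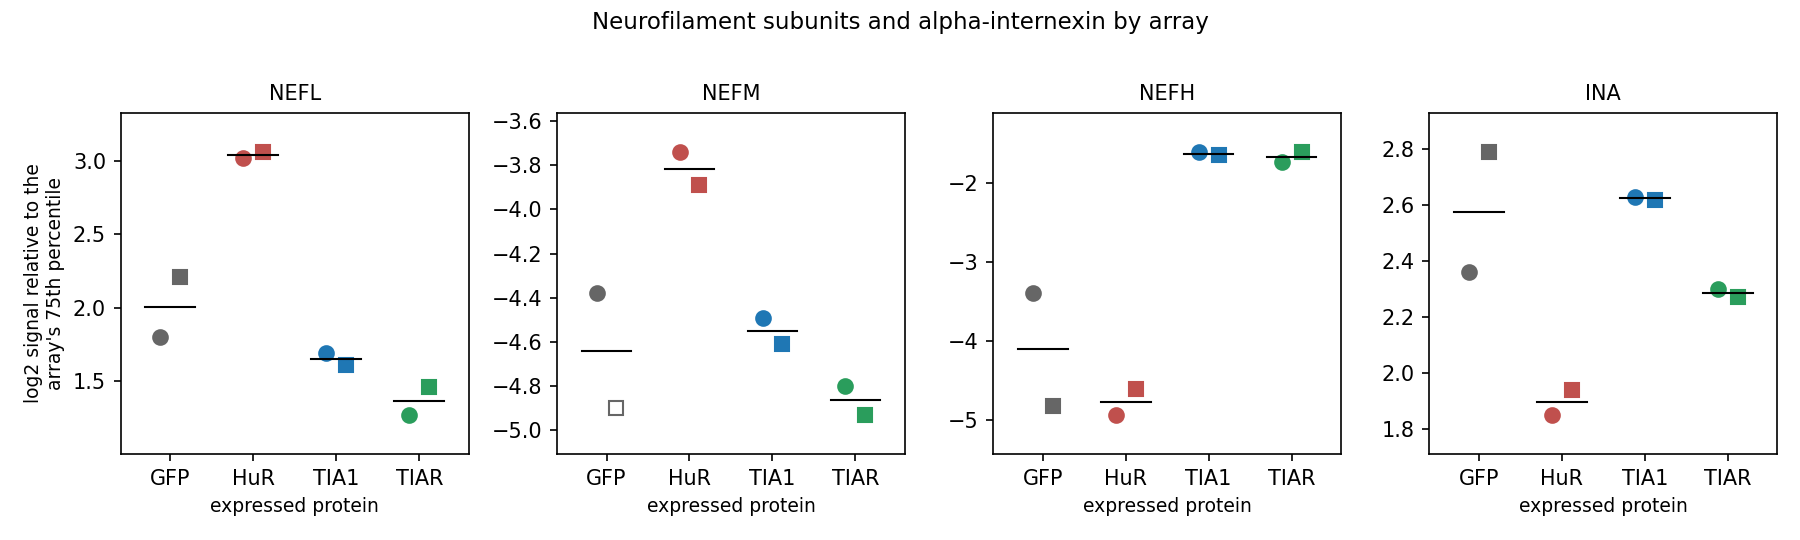
Log2 signal relative to the array's 75th percentile (y axis, with its own range in each panel) of NEFL, NEFM, NEFH (probe A_23_P300600) and INA in the 4 lines (x axis); circles are replicate 1, squares replicate 2, open symbols were not well above background, and bars are means of 2 arrays. The HuR arrays are highest for NEFL and NEFM and lowest for INA, while for NEFH the TIA1 and TIAR arrays, at -1.73 to -1.61, lie above all others.

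STMN1 encodes stathmin, also known as oncoprotein 18, and its probes divided by transcript variant. The probe labelled for variant 1 had a signal of 61400 to 116000 intensity units. It lay at 5.25 and 6.09 in GFP-, at 5.67 and 5.68 in HuR-, at 6.38 and 6.14 in TIA1- and at 6.40 and 6.09 in TIAR-expressing cells. The HuR arrays lay below those of TIA1 and TIAR, and the GFP arrays spanned the HuR arrays. The log2 fold change was 0.58 (SE 0.12) for TIA1 and 0.57 (SE 0.14) for TIAR versus HuR, and neither was called.

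The 4 probes labelled for variant 4 moved the other way. Probe A_19_P00316238 lay at -0.19 and -0.21 in HuR-, at -1.93 and -1.75 in TIA1- and at -2.50 and -2.14 in TIAR-expressing cells. It was 3.12-fold lower with TIA1 (log2 fold change -1.64, SE 0.11) and 4.35-fold lower with TIAR (-2.12, SE 0.15) than with HuR. All 4 variant 4 probes were called lower in both comparisons, with log2 fold changes from -1.64 to -1.25 for TIA1 and from -2.12 to -1.56 for TIAR. Of all probes tested, 4.84% were called lower with TIA1 and 2.93% with TIAR. Probe A_19_P00316238 kept both calls with normexp background correction, with normexp and quantile normalization and with the authors' log2 values. The other 3 lost the TIA1 call under each of these, at log2 fold changes of -0.76 to -0.44, -0.99 to -0.71 and -0.99 to -0.72, and A_19_P00320972 (-0.80) and A_24_P342511 (-0.85) lost the TIAR call with normexp. No TIA1 or TIAR array reached the level of either HuR array at any of these probes.

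The GFP arrays differed widely from each other at the variant 4 probes. Probe A_19_P00316238 lay at -0.31 on GFP 1, near the HuR arrays, and at -2.77 on GFP 2, below every TIA1 and TIAR array. At the other variant 4 probes GFP 1 lay at -2.53, -2.21 and -3.23, above all TIA1 and TIAR arrays, and GFP 2 was lower than GFP 1 each time. On GFP 1 the background was also the highest of the 8 arrays, and its part in this gap was not tested. With all 8 arrays in one fit, where the GFP arrays enter the estimate of the spread, none of the 4 probes was called in either comparison, at the same log2 fold changes.

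**Figure D2:**
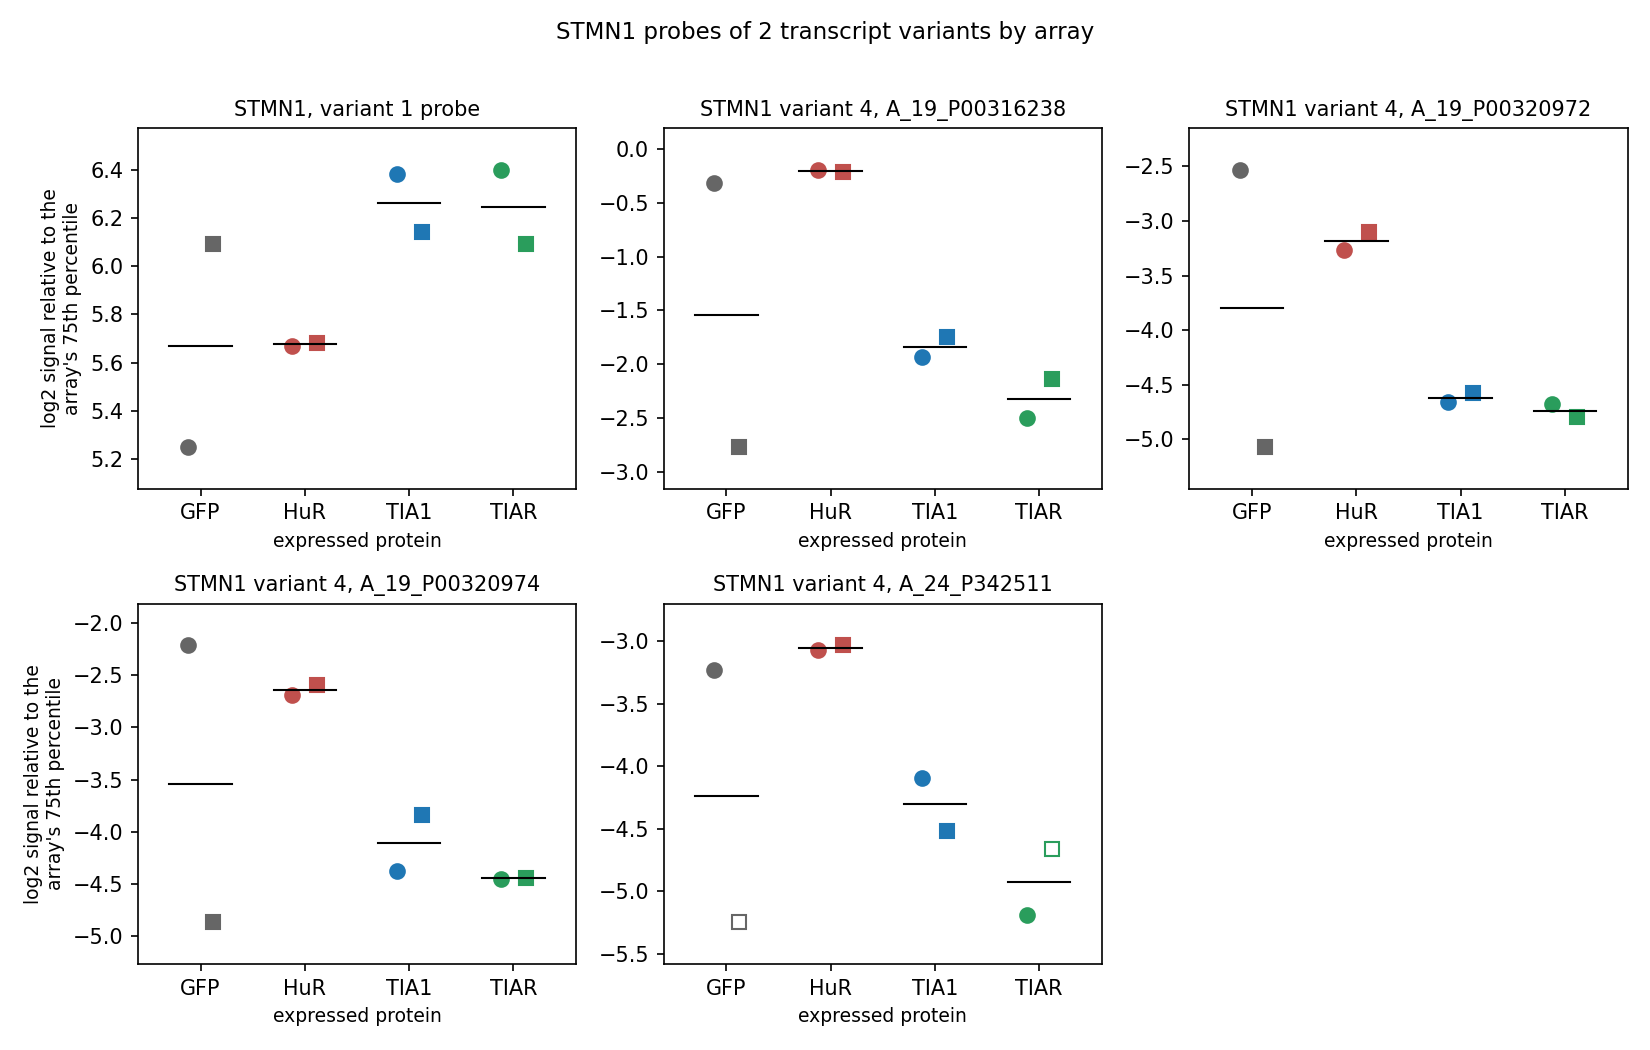
Log2 signal relative to the array's 75th percentile (y axis, own range per panel) of the STMN1 probe labelled for variant 1 and the 4 probes labelled for variant 4 in the 4 lines (x axis); circles are replicate 1, squares replicate 2, open symbols were not well above background, and bars are means of 2 arrays. At the variant 4 probes the HuR arrays lie above those of TIA1 and TIAR, and GFP 1 and GFP 2 lie far apart, whereas at the variant 1 probe the HuR arrays lie below those of TIA1 and TIAR.

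STMN3 and STMN4, stathmins of neurons, were higher in both TIA lines than in HuR-expressing cells, but the GFP line sat differently for each. STMN3 lay at -1.67 and -1.55 in HuR-expressing cells, against 0.22 and 0.35 in GFP-, 0.54 and 0.75 in TIA1- and -0.11 and -0.10 in TIAR-expressing cells. The HuR arrays were the lowest, and no 2 lines overlapped: the order was HuR, TIAR, GFP, TIA1. STMN3 was 4.78-fold higher with TIA1 (log2 fold change 2.26, SE 0.12) and 2.84-fold higher with TIAR (1.51, SE 0.10) than with HuR. Its log2 fold change in HuR versus GFP was -1.90 (SE 0.17), not called in the fit of these 4 arrays and called with all 8 arrays in one fit. It was -1.96 without GFP 1 and -1.83 without GFP 2.

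STMN4 lay at -2.30 and -1.94 in GFP- and at -2.02 and -2.03 in HuR-expressing cells, and at -0.50 and -0.49 in TIA1- and -0.58 and -0.20 in TIAR-expressing cells. The GFP and HuR arrays overlapped, the TIA1 and TIAR arrays overlapped, and these pairs of lines were apart. STMN4 was 2.89-fold higher with TIA1 (log2 fold change 1.53, SE 0.09) and 3.11-fold higher with TIAR (1.64, SE 0.16) than with HuR. Against GFP its log2 fold changes were 1.63 (SE 0.23) and 1.73 (SE 0.26). They were not called in the fits of the 4 arrays compared and were called with all 8 arrays in one fit. Without GFP 1 they were 1.44 and 1.55, and without GFP 2 they were 1.81 and 1.91.

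The summed level of the 7 mature neuron markers followed the same order of lines as STMN3, at 0.30 to 0.49 in HuR-, 0.75 to 0.78 in TIAR-, 0.99 to 1.04 in GFP- and 1.55 to 1.59 in TIA1-expressing cells, in log2 of the summed signal relative to the 75th percentile. Of the 3 neuron markers tested, RBFOX3, which encodes the neuronal nuclear antigen NeuN, rose by 2.03 (SE 0.12) in log2 fold change with TIA1 versus HuR (limma adjusted p = 0.0025). GAD1 and SLC17A7 stood at 0.08 (SE 0.12) and 0.06 (SE 0.13). With TIAR versus HuR, RBFOX3 stood at 0.91 (SE 0.14), SLC17A7 at 0.24 (SE 0.10) and GAD1, the other way, at -0.41 (SE 0.17), none of them called. A sum of signals weighs the brightest markers most, so its order of lines is not that of each marker. SYT1, SLC17A6, GAD2 and CAMK2A were well above background on 3, 1, 2 and 1 of the 8 arrays. Their part in the values of STMN3 was not tested.

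STMN2, also known as SCG10, was well above background on GFP 1 alone, at -3.97 in log2 signal. It entered no comparison.

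GAP43 and tau differed less. GAP43 lay at -4.35 and -4.13 in HuR-, at -4.40 and -4.76 in TIA1-, at -5.03 on TIAR 1 and at -5.11 on GFP 1, and was not well above background on TIAR 2 and GFP 2. The HuR arrays were the highest, with HuR 1 and TIA1 1 close together. Its log2 fold change was -0.34 (SE 0.17) for TIA1 and -0.98 (SE 0.17) for TIAR versus HuR, the latter just short of the fold threshold that NEFM just passed.

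Tau was measured by probes 3723 bases apart on chromosome 17. Probe A_21_P0014031, labelled for transcript variant 6, lay at -1.42 and -1.18 in GFP-, -0.59 and -0.92 in HuR-, -0.94 and -1.02 in TIA1- and -0.85 and -0.90 in TIAR-expressing cells. The HuR arrays overlapped those of TIAR, and the GFP arrays were the lowest. Probe A_24_P224488, labelled for variant 1, lay at -0.90 and -0.64, -0.25 and -0.58, -1.39 and -1.08, and -0.88 and -0.86 in the same lines. Here the HuR arrays were the highest and those of TIA1 the lowest. For TIA1 versus HuR the probes had log2 fold changes of -0.23 (SE 0.14) and -0.82 (SE 0.18), and for TIAR versus HuR of -0.12 (SE 0.15) and -0.46 (SE 0.15), none of them called.

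**Figure D3:**
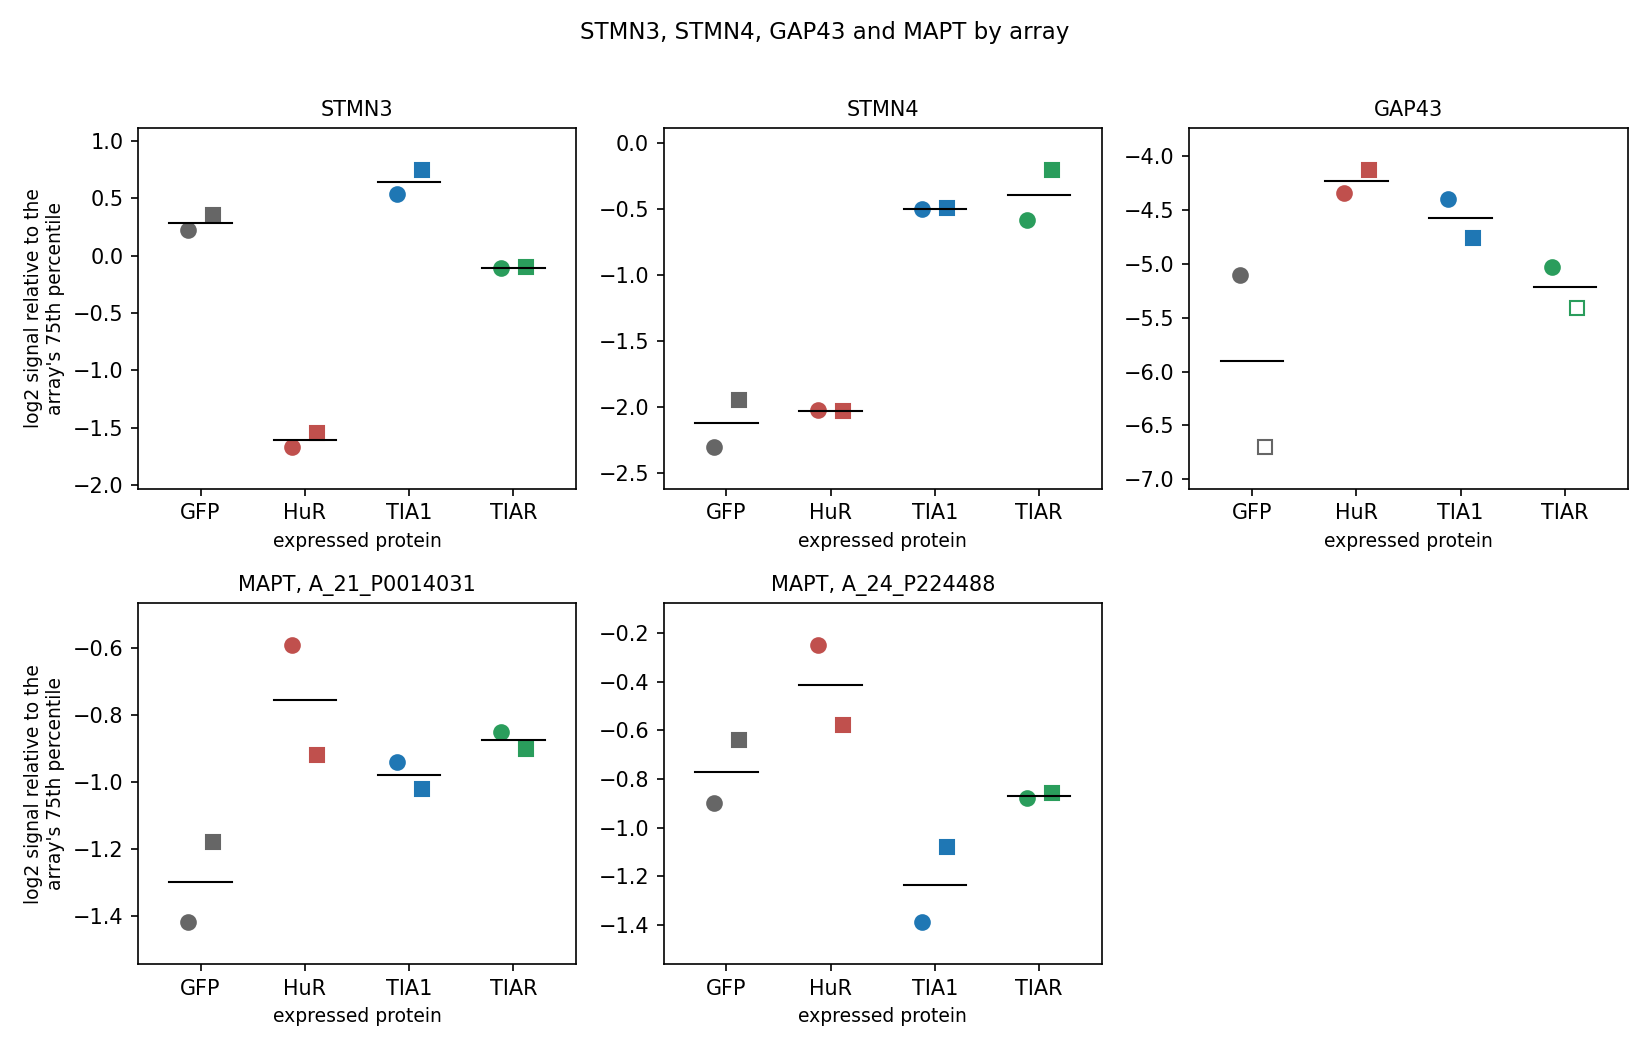
Log2 signal relative to the array's 75th percentile (y axis, own range per panel) of STMN3, STMN4, GAP43 and both MAPT probes in the 4 lines (x axis); circles are replicate 1, squares replicate 2, open symbols were not well above background, and bars are means of 2 arrays. STMN3 is lowest on the HuR arrays, at -1.67 and -1.55, and STMN4 separates the TIA1 and TIAR arrays from those of GFP and HuR.

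In TIA1- versus HuR-expressing cells, 14 of the 16 probes were tested, 3 were called higher and 5 lower. Among all 28743 probes tested, 8.6% were called higher and 4.84% lower. In TIAR- versus HuR-expressing cells, 15 were tested, 4 were called higher and 6 lower, against 7.15% and 2.93% of all 29099 probes. NEFH, STMN3 and STMN4 were the genes called higher in both comparisons, and NEFL and STMN1 those called lower in both, with NEFM lower against TIAR only. Since the members were selected on these contrasts, nothing is read from their counts. Leaving out HuR 1 left 3 of the TIAR calls (1 higher and 2 lower), and leaving out HuR 2 also left 3 (2 higher and 1 lower), with the calls over all probes falling from 2080 higher and 853 lower to 683 and 97 and to 570 and 87. The calls kept in both cases were those of NEFH (A_23_P300600) and STMN1 (A_19_P00320974), beside STMN1 (A_19_P00320972) without HuR 1 and the second NEFH probe without HuR 2. In TIA1 versus HuR, leaving out either HuR array lost the calls of the STMN1 probes A_19_P00320974 and A_24_P342511 and left 6. Probes well above background in only 1 of the compared lines had to differ, and these shares cover tested probes only.

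**Figure D4:**
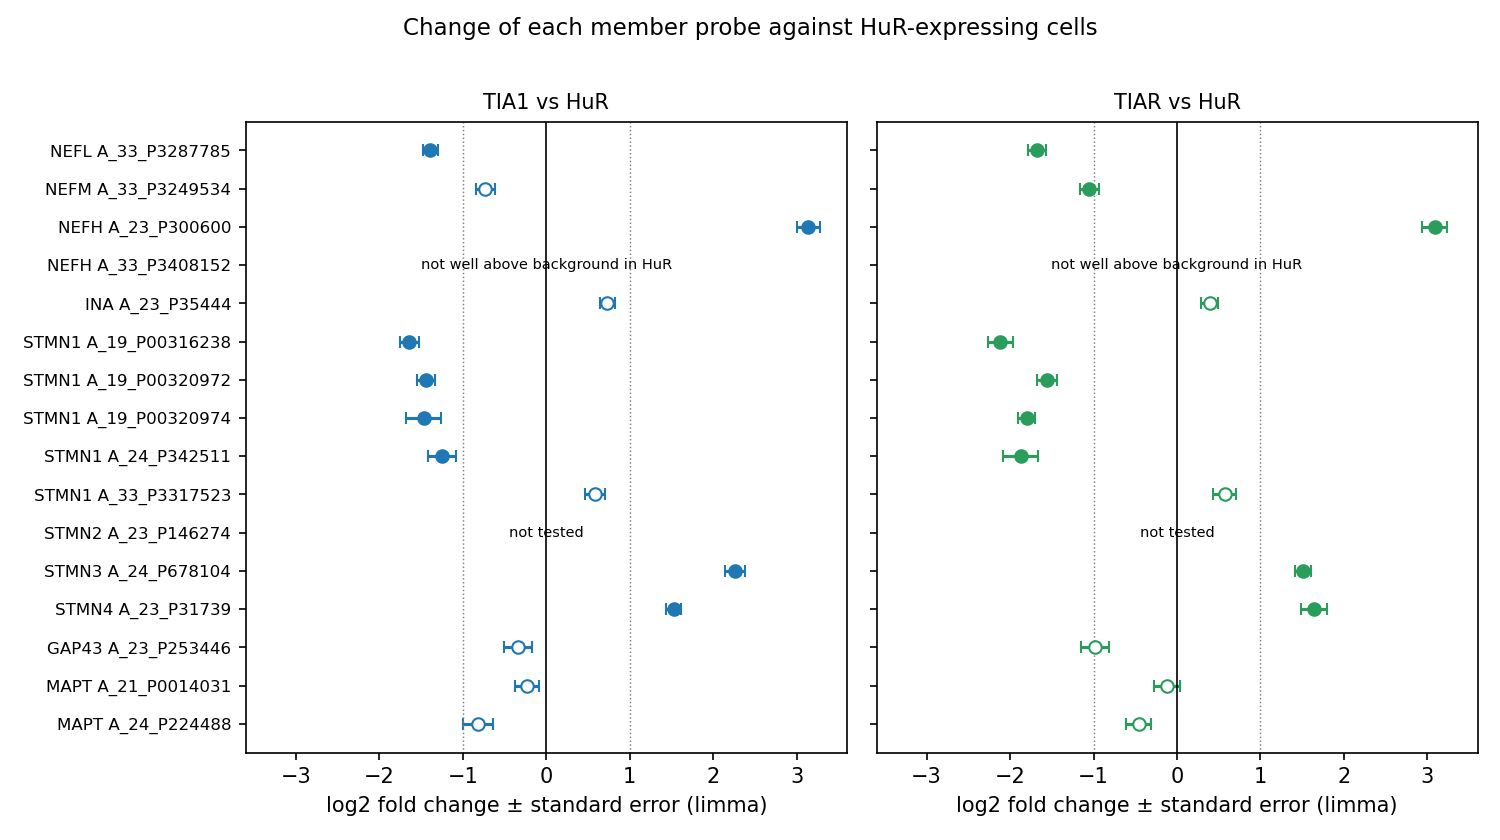
Log2 fold change with its standard error from limma (x axis) of the member probes (y axis, 16 rows) in TIA1- and TIAR- versus HuR-expressing cells, 2 arrays per line; filled symbols were called, and dotted lines mark 2-fold. STMN2, not tested, and the second NEFH probe, not well above background in HuR-expressing cells, have a text label in place of a point. NEFH (A_23_P300600), STMN3 and STMN4 lie to the right of the dotted lines in both panels, and NEFL and the variant 4 probes of STMN1 to the left.

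Between the TIA proteins, TIAR versus TIA1, 15 probes were tested and 0 were called in limma, where 1.25% of all 28063 probes were called higher and 1.1% lower and 6660 had an unadjusted p under 0.05. The member log2 fold changes ran from -0.75 (SE 0.13) for STMN3 to 0.43 (SE 0.15) for the second NEFH probe. The methods' paired test also called 0 of the 15.

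Against the GFP line, limma called 0 of 14 member probes for HuR, 0 of 14 for TIA1 and 0 of 13 for TIAR. The percentage of all probes called was 0 in either direction in each of the 3 comparisons, over 28871, 28042 and 28600 probes, of which 4870, 5975 and 4592 had an unadjusted p under 0.05. The paired test of the methods called 1, 0 and 1 member probes. Without GFP 1, limma called 7 member probes for HuR (6 higher and 1 lower), 3 for TIA1 and 3 for TIAR (all higher). Over all probes the same fits called 1295 higher and 1142 lower for HuR, 2041 and 1188 for TIA1, and 1441 and 482 for TIAR. Without GFP 2 it called 3, 7 and 6 member probes, where over all probes 1259 were higher and 5744 lower, 2160 and 4461, and 1670 and 4413. STMN3 in HuR versus GFP and NEFH and STMN4 in both TIA lines versus GFP kept their direction with either GFP array left out. A fit with 1 GFP array takes the spread from the other line alone. Its calls therefore leave out the gap between the GFP arrays, and they do not show that a difference from GFP is repeatable. The variant 4 probes of STMN1 were higher in HuR-expressing cells when GFP 1 was left out and lower in TIA1-expressing cells when GFP 2 was left out.

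Genes whose 8 signals ran most like those of 4 members were found among 24216 probes with a gene name and signal well above background on all arrays, by the Euclidean distance between the 8 log2 signals, each probe centred on its own mean. A smaller distance means a closer match, and members themselves spread by 1.82 (NEFL) to 4.13 (NEFH) from their own means in the same measure. For NEFH the nearest were MIR7-3HG (0.67), LOC100507305 (0.82) and XLOC_010542 (0.83). MIR7-3HG, the host gene of a microRNA, lay at -1.67 to -1.05 on the TIA1 and TIAR arrays and at -4.83 to -3.29 on the others. For NEFL they were INSIG1 (0.30), which encodes a regulator of sterol synthesis, and LOC100506421 (0.44). For STMN3 they were SP5 (0.36), CRMP1 (0.44) and ENST00000506335 (0.45). For the STMN1 variant 4 probe A_19_P00316238 they were C8orf29 (1.13), LOC645206 (1.36) and JAKMIP2 (1.45), at larger distances. The likeness covers these 8 arrays, in 4 lines, and no more. GFP 1 was among them, and distances without it were not computed. The genes nearest to STMN1 also had GFP 1 above GFP 2, such as C8orf29 at -3.16 and -4.93.

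Other genes of the neuronal cytoskeleton were taken from 6 lists with 82 genes, of which 74 had a probe that could be tested, each by its brightest one. In TIA1- versus HuR-expressing cells 12 were higher and 3 lower, with a median log2 fold change of 0.20 against 0.09 over all probes tested, and in TIAR- versus HuR-expressing cells 7 were higher and 4 lower, with medians of 0.21 and 0.06. Of all probes tested, 8.6% were called higher and 4.84% lower with TIA1, and 7.15% and 2.93% with TIAR. The same shares stand beside the counts of each list below, and nothing is read from these counts. Higher and lower in the lists mean relative to HuR-expressing cells, unless another comparison is named. Against GFP, 0 of the 74 were called for HuR, TIA1 and TIAR, as were 0 of all probes tested. The adjusted p-values below are from limma across all probes. The lists, like the marker genes, were chosen with earlier results of these data known. These p-values, and that of RBFOX3 above, are therefore a description and no independent test.

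Of 17 microtubule-associated proteins and neuronal tubulins tested, 3 were higher and 1 lower in each comparison, with median log2 fold changes of -0.05 for TIA1 and 0.11 for TIAR. CRMP1, a collapsin response mediator that binds tubulin, MAP1A, a microtubule-associated protein of mature neurons, and TUBB3, the neuronal beta-tubulin, were higher, with log2 fold changes of 2.11 (SE 0.14), 1.82 (SE 0.10) and 1.43 (SE 0.10) for TIA1 (adjusted p 0.0027, 0.0024 and 0.0028) and of 1.49, 1.46 and 1.81 for TIAR. MAP2, the dendritic microtubule-associated protein, was lower, by -1.54 (SE 0.13, adjusted p = 0.0037) and -1.78 (SE 0.18, adjusted p = 0.0081). Doublecortin (DCX) could not be tested in either comparison. STMN3 and these tubulin-binding genes thus did not all run the same way. In HuR versus GFP, CRMP1 stood at -1.90 (SE 0.19), MAP1A at -2.05 (SE 0.17), MAP2 at 1.41 (SE 0.16) and TUBB3 at -0.17 (SE 0.19). Versus GFP, CRMP1, MAP1A and MAP2 stood at 0.21, -0.23 and -0.12 with TIA1 and at -0.42, -0.58 and -0.37 with TIAR. TUBB3 stood at 1.27 (SE 0.22) and 1.64 (SE 0.21) versus GFP. None of these values against GFP was called.

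Of the 11 other intermediate filaments tested, 1 was lower with TIA1 and 1 higher with TIAR (medians 0.22 and 0.44). Synemin (SYNM) had a log2 fold change of -1.12 (SE 0.13, adjusted p = 0.0067) with TIA1 versus HuR and of 1.39 (SE 0.13, adjusted p = 0.026) in TIAR versus TIA1. Keratin 19 (KRT19) had one of 1.24 (SE 0.12, adjusted p = 0.0078) with TIAR and of 0.68 (SE 0.10), under 2-fold, with TIA1. Peripherin (PRPH), the intermediate filament of peripheral neurons that co-assembles with the neurofilament subunits, stood at 0.15 (SE 0.10, adjusted p = 0.29) and 0.61 (SE 0.10, adjusted p = 0.018), under 2-fold in both. Vimentin (VIM) stood at 0.22 (SE 0.15) and 0.45 (SE 0.12). In HuR versus GFP, KRT19 stood at -1.03 (SE 0.21) and SYNM at 0.47 (SE 0.31), neither called.

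Among 13 growth cone membrane and vesicle proteins, 3 were higher with TIA1 and 1 higher and 1 lower with TIAR (medians 0.69 and 0.26). SNAP25, a SNARE protein of synaptic vesicle fusion, was higher in both, by 2.60 (SE 0.10, adjusted p = 0.0017) and 2.27 (SE 0.10, adjusted p = 0.0037) in log2 fold change. Synaptophysin (SYP) and syntaxin 1A (STX1A) were called with TIA1 at 1.33 and 1.17, and stood at 0.60 and 0.72 with TIAR. Reticulon 1 (RTN1) was lower with TIAR than with HuR, at -1.18 (SE 0.12, adjusted p = 0.0079), and stood at -0.17 (SE 0.11) with TIA1. The GFP line was the lowest for RTN1. Its mean log2 signal was -0.99 in HuR-, -1.15 in TIA1-, -2.16 in TIAR- and -2.80 in GFP-expressing cells. In HuR versus GFP, SNAP25, SYP and STX1A stood at -1.20, -1.01 and -0.09, none called.

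Of 13 kinases and other enzymes that act on stathmin and tau, 1 was called, with TIA1 (median 0.13 in each comparison). CDK5R1, the p35 activator of the neuronal kinase CDK5, had a log2 fold change of 1.05 (SE 0.10, adjusted p = 0.0046) with TIA1 and of 0.86 (SE 0.09, adjusted p = 0.0091) with TIAR, the latter under 2-fold. Of 10 motor and transport genes (medians 0.19 and 0.06), the kinesin heavy chain KIF5A was higher with TIA1, at 1.27 (SE 0.10, adjusted p = 0.0032), and stood at 0.56 (SE 0.10) with TIAR. KIF5C was lower with TIAR than with HuR, at -1.16 (SE 0.11, adjusted p = 0.0069), and stood at -0.63 (SE 0.10) with TIA1. Its mean log2 signal was 1.67 in HuR-, 1.04 in TIA1-, 0.50 in TIAR- and 0.48 in GFP-expressing cells. In HuR versus GFP, KIF5A and CDK5R1 stood at 0.02 and -0.46, neither called.

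Of 11 regulators of neuronal genes tested, 4 were higher and 1 lower with TIA1, and 2 higher and 1 lower with TIAR (medians 0.55 and 0.19). MYT1, a zinc finger factor of neural progenitors, had log2 fold changes of 3.16 (SE 0.12) and 3.08 (SE 0.21), with 1 of 2 HuR arrays well above background. NEUROD2, a neuronal differentiation factor, was not well above background on either HuR array. In the signals used here it was higher than with HuR by at least 4.42-fold in TIA1-expressing and by at least 15.6-fold in TIAR-expressing cells. NEUROD2 was also well above background on both GFP arrays. Its mean log2 signal was -2.73 (SD 1.30) in GFP-, -3.86 in TIA1- and -2.04 in TIAR-expressing cells. For MYT1 the means were -3.44, -2.44 and -2.52 in the same lines and -5.60 with HuR. MYT1 and NEUROD2 entered these comparisons with HuR only through their signal in the TIA lines, and no p is given for them there. NEUROG2, a proneural factor, was lower, at -1.49 (SE 0.19, adjusted p = 0.0081) and -1.58 (SE 0.14, adjusted p = 0.0069). ELAVL2, a neuronal relative of HuR, was called with TIA1 at 1.25 (SE 0.13, adjusted p = 0.0052) and stood at 0.76 (SE 0.11), under 2-fold, with TIAR. In HuR versus GFP, NEUROG2 and ELAVL2 stood at 0.48 (SE 0.28) and -1.04 (SE 0.28), neither called. The repressors of neuronal programmes REST and PTBP1 stood at 0.55 (SE 0.15) and -0.53 (SE 0.20) with TIA1 and at 0.19 (SE 0.37) and -0.30 (SE 0.19) with TIAR, and neither was called. Between TIAR and TIA1, 3 of the 74 list genes were called: SYNM and NEUROD2 (1.82, SE 0.19, adjusted p = 0.031) were higher with TIAR and RTN1 lower (-1.01, SE 0.14, adjusted p = 0.045). These 3 calls were lost with no filter on dim probes and with the replicate number as a block, where 0 of all probes were called. With an array left out, the calls over all probes in TIAR versus TIA1 fell from 350 higher and 309 lower to 19 and 4 without TIA1 1, 26 and 8 without TIA1 2, 3 and 1 without TIAR 1, and 8 and 2 without TIAR 2.

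**Figure D5:**
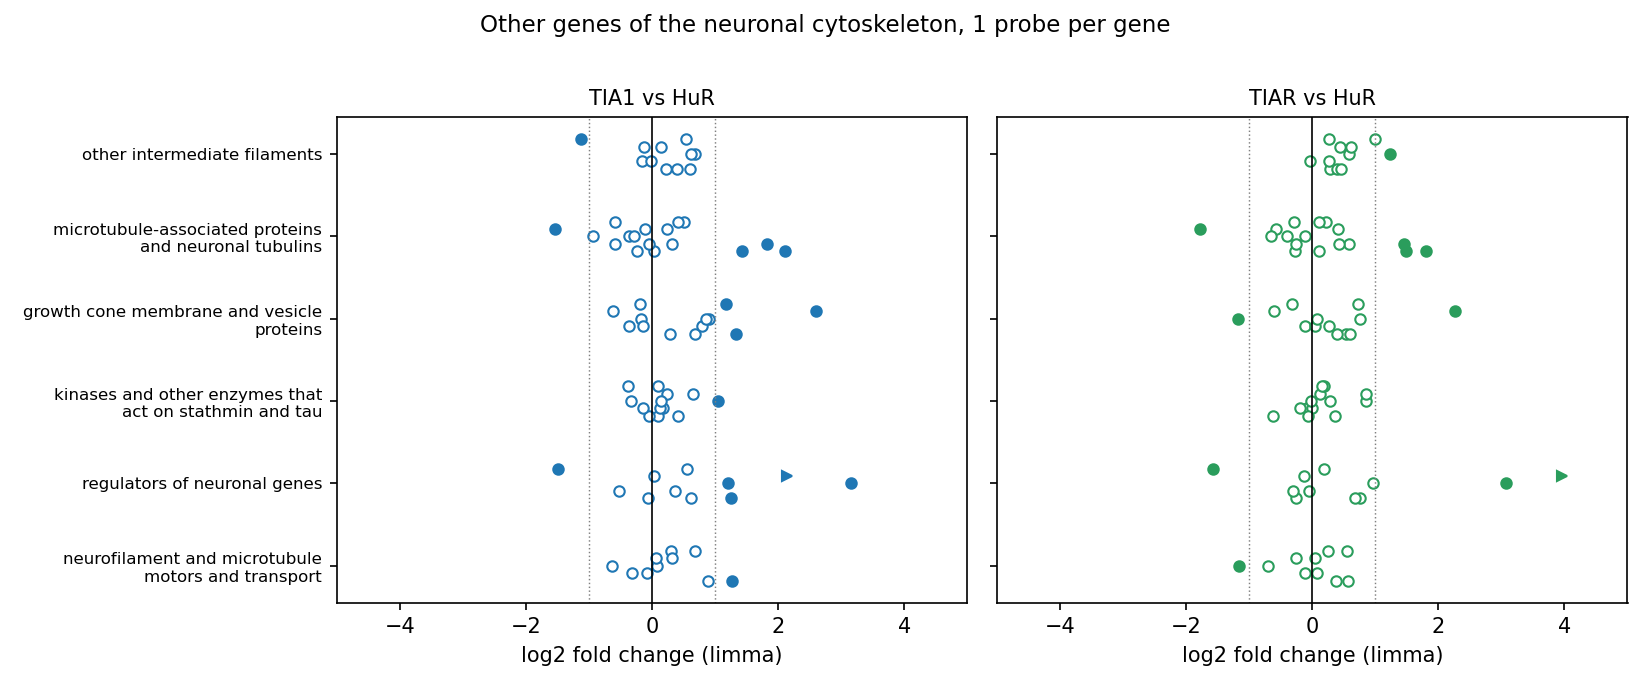
Log2 fold change from limma (x axis) of the other genes of the neuronal cytoskeleton in TIA1- and TIAR- versus HuR-expressing cells, by list (y axis), 1 probe per gene and 2 arrays per line; filled symbols were called, dotted lines mark 2-fold, and the triangle marks the lower bound for NEUROD2. Called genes lie on both sides, 12 higher and 3 lower in the left panel and 7 higher and 4 lower in the right. Of all probes tested, 8.6% were called higher and 4.84% lower in the left comparison, and 7.15% and 2.93% in the right.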

How the data were processed

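RNA of 8 samples was hybridized to one-colour 60-base arrays on 1 slide. The authors deposited the output of Feature Extraction 10.7.3.1 per array, with processed, mean and background signals as intensity values, the processed signal being background-subtracted within the array. They also deposited a table of log2 values for the series, in which the arrays share the same quantiles, those of TIAR apart from the rest. Per the labels the authors used limma, and the background correction behind the table and why the TIAR arrays are apart are not given in the sources used here.

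The log2 of each processed signal, less the 75th percentile of its array, was averaged over the spots of a probe that were not marked as outliers. A probe was tested if both arrays of either compared line showed it well above background, with R 4.3.3 and limma 3.58.1 (lmFit, eBayes) on the 4 arrays of a comparison, after a check on simulated data. Version 1.17.8 of data.table and version 3.10.9 of matplotlib served for reading and plotting. With 2 arrays per line, their number limits the precision.

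The members, lists and marker genes were chosen with earlier results of these data known. Named were all members, the called list genes with the largest change against HuR (at most 4 per list), REST, PTBP1, MAP2, TUBB3, VIM, PRPH and DCX, and the 3 genes nearest to each of 4 members, of which 1 is not reported here. The alternatives were normexp background correction (offset 50), quantile normalization, both together, the authors' log2 values, other filters, all 8 arrays in one fit, the replicate number as a block, the methods' paired t-test, and leaving out each array. Sample groups came from the titles of the labels, and 1 source name that differs from its title was not used. The protocol of the labels names a rat array, whereas the array files name the human one.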

Additional observations from a re-analysis of the deposited data

Results flagged for a closer look

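STMN3 stood out because the arrays of the 2 TIA proteins fell on opposite sides of the GFP line: both TIA1 arrays lay above both GFP arrays and both TIAR arrays below them. The mean of the TIAR arrays minus that of the TIA1 arrays was -0.75 in log2 signal (SE 0.13 in limma). TIAR versus TIA1 was tested directly, and STMN3 was not called there at the fold threshold of 2.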

How the results depend on the processing

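The NEFH probe A_23_P300600 in both comparisons with HuR, and NEFL, STMN3 and STMN4 in TIA1 versus HuR, were called under every alternative in which limma was run. The causes of the changes below were not tested. Of the members' probes, TIA1 versus HuR had 8 calls, which became 5 with normexp background correction, with normexp and quantile normalization, and with the authors' log2 values, 4 with all 8 arrays in one fit and 0 with the methods' t-test after Benjamini-Hochberg, and 6 to 8 when an array was left out. Over all probes the same comparison had 2472 higher and 1391 lower, and then 1533 and 670, 963 and 742, 956 and 742, 1680 and 1005, and 0 and 0. TIAR versus HuR had 10 calls, which became 6 with normexp, 5 with all 8 arrays in one fit, 5 with the methods' t-test and 0 after Benjamini-Hochberg, and 3 to 11 with an array left out. Over all probes, 2080 and 853 became 1172 and 437, 1243 and 582, 968 and 376, and 0 and 0. Against GFP, all 8 arrays in one fit gave 2 calls each for HuR, TIA1 and TIAR, the methods' t-test gave 1 for HuR and 1 for TIAR, and leaving out an array gave 0 to 7, 0 to 7 and 0 to 6. Over all probes the fit of 8 arrays called 388 higher and 758 lower, 1380 and 1170, and 992 and 699, and the methods' t-test called 153 and 282 for HuR and 307 and 197 for TIAR. Of the list genes, 15 were called for TIA1, 9 with the authors' values, 9 with the methods' t-test and 0 after Benjamini-Hochberg, and 11 for TIAR, 6 with the methods' t-test, 0 after Benjamini-Hochberg and 4 to 12 with an array left out. With the replicate number as a block, 8 and 10 member probes were called against HuR, and no call of a member was lost or gained. Over all probes the block took TIAR versus TIA1 from 350 higher and 309 lower to 0 and 0, and with them the calls of SYNM, NEUROD2 and RTN1. The numbers share only a label, since the deviations of same-numbered arrays correlated at -0.09 to 0.18. Where a line is left with 1 array, that array was assumed to vary like the other line. Probes near background, such as the second NEFH probe, limit what can be said at low signal: its log2 fold change for TIAR versus HuR ran from 0.23 to 3.03.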
